A study of Chlorocebus sabaeus with 10 samples.

Results

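Blood crosses the liver lobule toward the central vein through sinusoids, capillaries lined by a fenestrated endothelium that takes up waste molecules from the circulation, while larger vessels are lined by a continuous endothelium that holds stores of clotting factor. The genes described here are 10 markers of these cells, namely the sinusoidal scavenger receptor genes STAB1, STAB2 and LYVE1, the growth factor receptor genes KDR, TEK and ENG, the junction and adhesion genes CDH5 and PECAM1, the clotting factor gene VWF and the secreted factor gene EGFL7. They were taken from the deposited count table by gene symbol, and each is represented by its transcript with the highest mean count. Of the 10 listed genes, 9 had a row with their symbol among 23352 genes of the deposited table, each with 1 transcript, and EGFL7 was not analysed here. All 9 passed the filter on low counts, which asks for about 10 counts in as many animals as 1 diet group holds.

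The samples were liver biopsies of 10 female vervet monkeys (Chlorocebus sabaeus), an Old World primate, assigned to the diets with age and body weight balanced. The paper lists a higher mean age for the HFr group, a difference that was not significant there. Chow was the earlier diet of both groups, and over 6 weeks the high fructose (HFr) diet replaced it in 5 animals while the other 5 continued on it. Each animal gave 1 library of polyadenylated RNA, with 2977282 to 4992505 estimated counts, of which 34.7% to 73.6% came from the mitochondrial genome. The counts left for nuclear transcripts spread widely, with 864571 in chow replicate 4 as the lowest and 2657103 in chow replicate 3 as the highest. Because whole tissue was sequenced, fewer endothelial cells in a biopsy and less RNA per endothelial cell cannot be told apart.

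Levels are given as normalized counts, the estimated counts divided by a library size that was scaled with the trimmed mean of M values, abbreviated TMM (CPM). A quasi-likelihood test in edgeR compared the diets over 7948 transcripts, and a log2 fold change, given with its standard error (SE), is HFr minus chow. Transcript lengths were not used here, so a level is compared between animals and not between genes. All 9 members were counted in all 10 animals, from 8 estimated counts of ENG in HFr replicate 1 to 1016 of STAB1 in HFr replicate 4. Their presence fits the label of the list, but several are not limited to endothelium: STAB1 is also known in macrophages, PECAM1 in leukocytes and platelets, VWF in megakaryocytes and platelets, and LYVE1 in lymphatic vessels and some macrophages.

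Among the members, 1 of 9 had an unadjusted p under 0.05 between the diets, KDR, which was higher on the HFr diet. Over all tested transcripts this share was 4.29%, and 2.06% were higher on the HFr diet with such a p. The fold change was above 0 for 5 of the 9 members and below 0 for 4, with a median log2 fold change of 0.03 against -0.0007 over all tested transcripts. No member passed Benjamini-Hochberg adjustment over all transcripts, and no tested transcript did with edgeR (341 had an unadjusted p under 0.05, and DESeq2 called 2 transcripts after adjustment, neither of them a member). For no member were the diets free of overlap, against 0.541% of all tested transcripts (0.214% higher and 0.327% lower on the HFr diet).

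**Figure D1:**
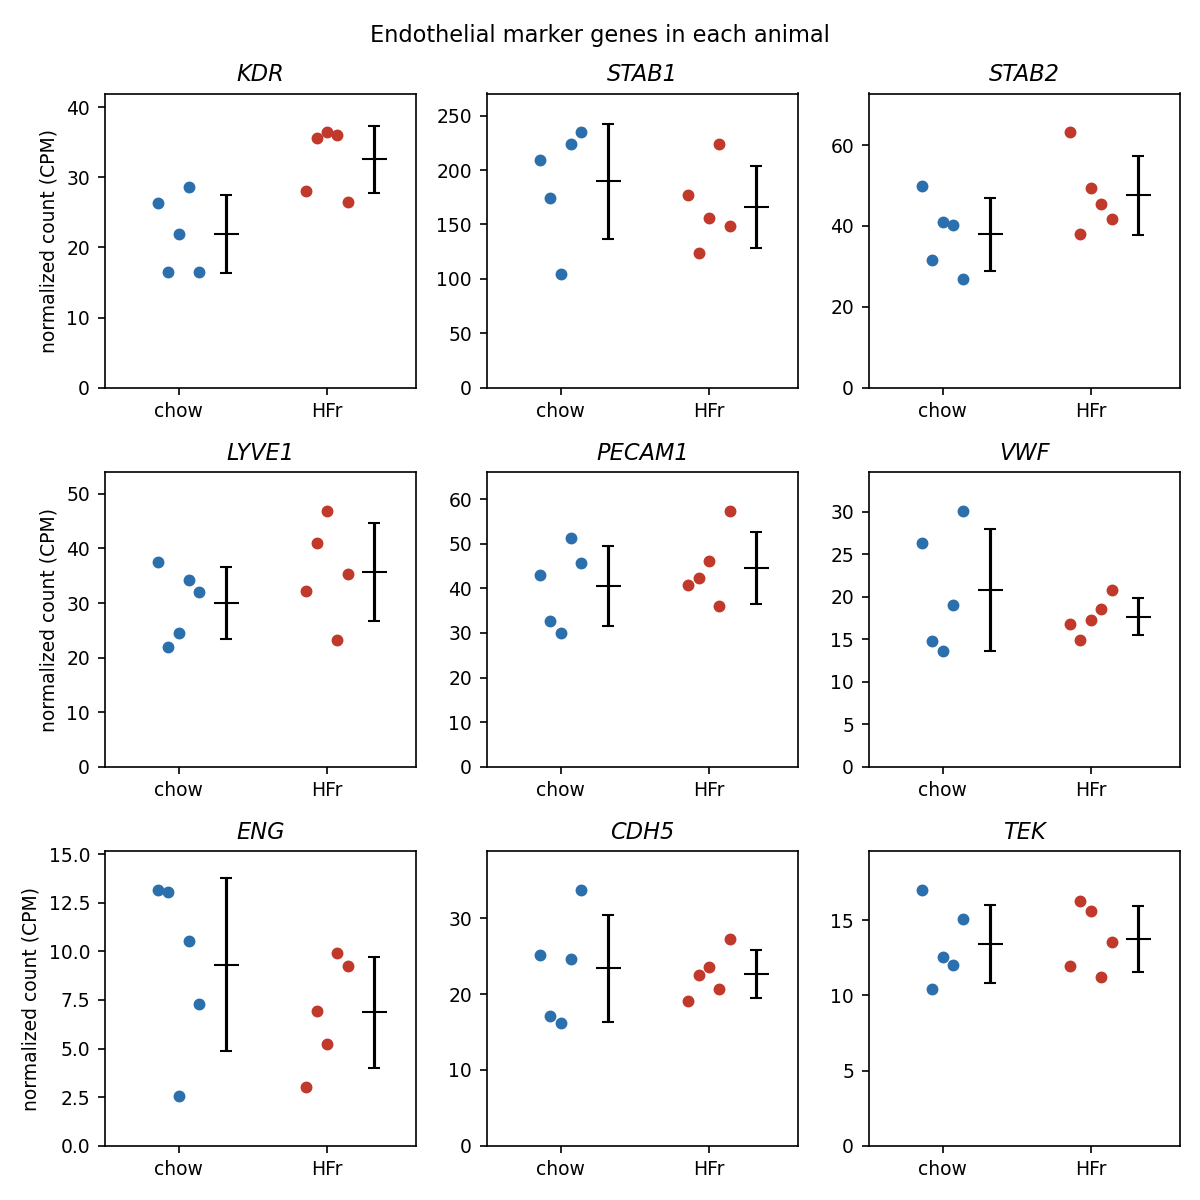
Normalized counts (CPM of the TMM-scaled library) of the 9 measured members in each of 5 chow and 5 HFr animals. Each point is 1 animal, the horizontal bar with whiskers is the mean with its SD, and every vertical axis starts at 0. The KDR points of the HFr animals lie mostly above those of the chow animals, and the chow points of VWF and CDH5 are spread more widely than the HFr points.

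KDR encodes the main signaling receptor for vascular endothelial growth factor on endothelial cells, and lies on chromosome 7 of the assembly ChlSab1.1 from 13435096 to 13482772 on the plus strand. In HFr replicates 1 to 5 it had 28.1, 35.6, 36.5, 36.0 and 26.5 normalized counts. In chow replicates 1 to 5 it had 26.3, 16.5, 21.9, 28.6 and 16.4. Every HFr animal exceeded the chow mean, and the diets overlapped only where chow replicate 4, with 57 estimated counts, stood above HFr replicates 1 and 5. The means were 32.5 ± 4.82 on the HFr diet and 21.95 ± 5.55 on chow (SD, n = 5 each), which is 0.57 higher on the log2 scale in the edgeR fit (SE 0.19, 95% confidence interval 0.15 to 0.99). The difference had an unadjusted p of 0.0109 and an adjusted p of 0.9996 from edgeR's quasi-likelihood test. A two-sided exact permutation test of the normalized counts over all ways of giving 5 of the 10 animals to a diet gave p = 0.0317, where 0.00794 is the smallest p possible. With library size as the only scaling, the KDR log2 fold change was 0.59 and its unadjusted p from edgeR was 0.102. With that scaling 1.56% of all tested transcripts had an unadjusted p under 0.05. Within each animal, the log2 level of KDR minus the mean log2 level of the other 8 members lay between -0.24 and 0.36 on the HFr diet and between -0.93 and 0.10 on chow, so the diets overlapped on this scale too.

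TEK and ENG are the other receptor genes of the list. TEK, on chromosome 12 from 52819258 to 52941799 on the minus strand, encodes the angiopoietin receptor. It had 11.3 to 16.3 normalized counts (median 13.6) in the HFr animals and 10.4 to 17.0 (median 12.6) in the chow animals, and the HFr range lay wholly inside the chow range. The TEK log2 fold change was 0.03 (SE 0.19), with a 95% confidence interval from -0.38 to 0.45, so a difference of the size fitted for KDR lies outside it. ENG encodes endoglin, a coreceptor for bone morphogenetic proteins and transforming growth factor beta, on the same chromosome from 10275064 to 10315041 on the plus strand. It had the lowest counts of the members, with 2.99, 6.91, 5.21, 9.93 and 9.24 normalized counts in HFr replicates 1 to 5. In chow replicates 1 to 5 it had 13.2, 13.1, 2.55, 10.5 and 7.30. Chow replicate 3 held the lowest ENG value of all animals and chow replicates 1, 2 and 4 the 3 highest. The ENG log2 fold change was -0.39 (SE 0.40, 95% confidence interval -1.26 to 0.47, unadjusted p = 0.346 from edgeR), and its coefficient of variation reached 41.7% among the HFr and 48.0% among the chow animals.

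STAB1 and STAB2 encode the stabilins, large scavenger receptors by which sinusoidal endothelium clears modified proteins and, through STAB2, hyaluronan. STAB1, on chromosome 22 from 13870551 to 13896971 on the plus strand, had 177, 124, 155, 224 and 148 normalized counts in HFr replicates 1 to 5. In chow replicates 1 to 5 it had 210, 175, 104, 224 and 235. Chow replicate 3 had the lowest STAB1 level of all animals while the other chow animals were at 175 or above. STAB2, on chromosome 11 from 98779921 to 98954914 on the plus strand, had 63.3, 38.1, 49.3, 45.5 and 41.7 normalized counts in HFr replicates 1 to 5. In chow replicates 1 to 5 it had 49.9, 31.5, 41.0, 40.2 and 26.9. Every HFr animal was above the chow mean of 37.9 ± 8.95 (SD, n = 5) for STAB2, yet the ranges of the diets overlapped from 38.1 to 49.9. The log2 fold changes of the stabilin genes had opposite signs, -0.19 (SE 0.24, unadjusted p = 0.430 from edgeR) for STAB1 and 0.32 (SE 0.20, unadjusted p = 0.134 from edgeR) for STAB2. Whether these 2 effects differ was not tested. Without chow replicate 1, STAB2 had a log2 fold change of 0.44 with an unadjusted p of 0.0491 from edgeR.

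LYVE1, a hyaluronan receptor gene of sinusoidal and lymphatic endothelium on chromosome 1 from 54253495 to 54269599 on the plus strand, had 23.2 to 46.9 normalized counts (median 35.4) on the HFr diet and 21.97 to 37.5 (median 31.9) on chow. HFr replicate 3 was the highest animal and chow replicate 2 the lowest. The LYVE1 log2 fold change was 0.26 (SE 0.21, 95% confidence interval -0.20 to 0.72, unadjusted p = 0.253 from edgeR).

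PECAM1 and CDH5 encode adhesion proteins that hold endothelial cells together at their borders, CDH5 being the endothelial cadherin. PECAM1, on chromosome 16 from 56880934 to 56951000 on the plus strand, had 36.0 to 57.4 normalized counts (median 42.3) on the HFr diet and 29.9 to 51.2 (median 42.9) on chow, with a log2 fold change of 0.15 (SE 0.19, 95% confidence interval -0.26 to 0.56). HFr replicate 5 stood highest and chow replicates 2 and 3 lowest. CDH5, on chromosome 5 from 52060013 to 52100406 on the plus strand, had 19.1 to 27.3 normalized counts (median 22.5) on the HFr diet and 16.2 to 33.8 (median 24.6) on chow, so the HFr animals lay inside the chow range. The CDH5 log2 fold change was -0.02 (SE 0.21, 95% confidence interval -0.47 to 0.43).

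VWF encodes von Willebrand factor, which tethers platelets to injured vessel walls and is a marker of vessels larger than normal sinusoids. It lies on chromosome 11 from 5994039 to 6162261 on the minus strand. In HFr replicates 1 to 5 it had 16.8, 14.9, 17.2, 18.5 and 20.8 normalized counts. In chow replicates 1 to 5 it had 26.3, 14.8, 13.7, 19.1 and 30.1. Chow replicates 1 and 5 were above all HFr animals and chow replicates 2 and 3 below them, so the chow range enclosed the HFr range. The VWF log2 fold change was -0.21 (SE 0.23, 95% confidence interval -0.70 to 0.27, unadjusted p = 0.363 from edgeR). The coefficient of variation of VWF was 12.4% among the HFr animals and 34.6% among the chow animals, and that of CDH5 was 13.8% and 30.4%.

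**Figure D2:**
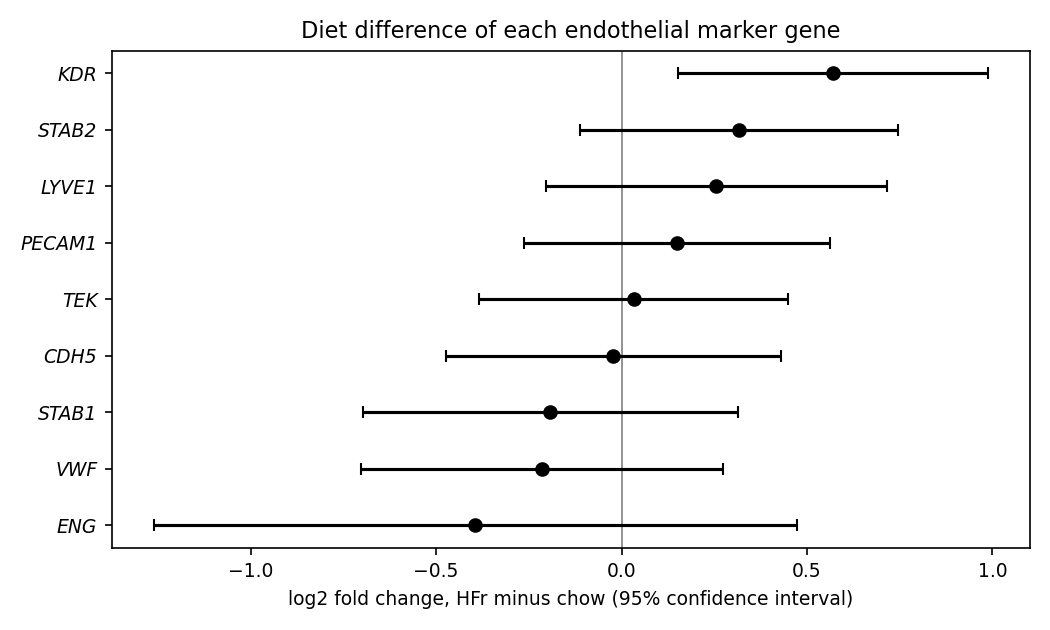
Log2 fold change of each measured member, HFr minus chow, with its 95% confidence interval from edgeR's quasi-likelihood test (n = 5 animals per diet). The interval of KDR (0.15 to 0.99) lies above 0 and the intervals of the other 8 members include 0.

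The mean over the 9 members of log2(normalized count + 1), called the member score, summarizes each animal. The HFr animals averaged 4.91 ± 0.09 and the chow animals 4.83 ± 0.30 (SD, n = 5 each), a difference of 0.07 that is smaller than the pooled SD of 0.22. The HFr animals lay between 4.77 and 5.00, while the chow animals stood at 5.15, 4.63, 4.42, 5.02 and 4.95 in replicates 1 to 5. All 9 members were above their chow mean in chow replicate 1, whereas 8 of 9 were below it in chow replicate 2 and 7 of 9 in chow replicate 3. Chow replicates 2 and 3 also had the lowest mitochondrial shares of the chow animals, 34.7% and 43.0%. HFr replicates 2 and 5 had shares of 41.8% and 44.0% with scores of 4.88 and 5.00. The part of the mitochondrial share in the scores was not tested. KDR had a log2 fold change of 0.57 (unadjusted p = 0.00983 from edgeR) with the mitochondrial percent as a covariate. Without chow replicate 3 the difference in the score was -0.03, and without chow replicate 1 it was 0.15.

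**Figure D3:**
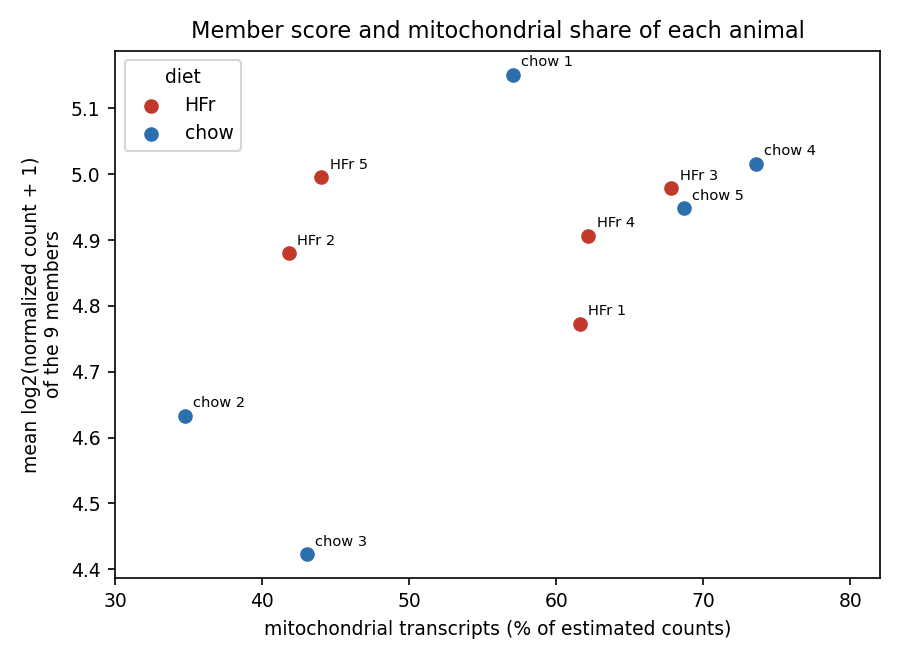
Member score (mean log2(normalized count + 1) of the 9 measured members) of each animal against the percent of its estimated counts on mitochondrial transcripts. Each point is 1 animal, colored by diet, and the vertical axis does not start at 0. Chow replicates 2 and 3 lie lowest, at 4.63 and 4.42, and chow replicate 1 highest, at 5.15.

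The 36 pairs of members were compared over the 10 animals on the log2(normalized count + 1) scale. Of the pairs, 25 had a positive Pearson's r, with a median of 0.28 and a range from -0.36 to 0.86. All levels of an animal share 1 library and 1 scaling factor. VWF and CDH5 had the highest value, r = 0.863 (permutation p = 0.00103, adjusted over the 36 pairs 0.0371) and Spearman's rho = 0.927 (permutation p = 0.000300, adjusted 0.0108). Without the 2 animals farthest from the VWF median, r was 0.816. This was the 1 pair with an adjusted p under 0.05, and 6 pairs had an unadjusted p under 0.05. LYVE1 and TEK reached r = 0.807 (permutation p = 0.00570, adjusted 0.0820) and rho = 0.818 (permutation p = 0.00577, adjusted 0.0692), and r was 0.626 without the 2 animals farthest from the LYVE1 median. PECAM1 and CDH5 reached r = 0.796 (permutation p = 0.00683, adjusted 0.0820) and rho = 0.855 (permutation p = 0.00307, adjusted 0.0553), and r was 0.703 without the 2 animals farthest from the PECAM1 median. With each value taken as its deviation from the diet mean, these 3 pairs had r of 0.890, 0.833 and 0.830. Their permutation p-values after adjustment over the pairs were 0.0263, 0.0418 and 0.0418. That permutation ran over all 10 animals and did not allow for the fitted diet means, so these p-values can come out too small.

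KDR and STAB2 reached r = 0.651 (permutation p = 0.0409, adjusted 0.245) and rho = 0.467 (permutation p = 0.178, adjusted 0.561). Without the 2 animals farthest from the KDR median r fell to 0.0024, so its size depended on those animals, though leaving out extreme levels can by itself lower r. With deviations from the diet means r was 0.470 (permutation p = 0.172, adjusted 0.515). STAB1 and STAB2, although paralogs, had r = -0.100 and rho = -0.042, with permutation p-values of 0.782 and 0.918 (adjusted 0.946 and 0.920). Averaged over its 8 pairs, r was 0.42 for PECAM1 and 0.41 for CDH5, against 0.15 for KDR and 0.01 for STAB2.

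**Figure D4:**
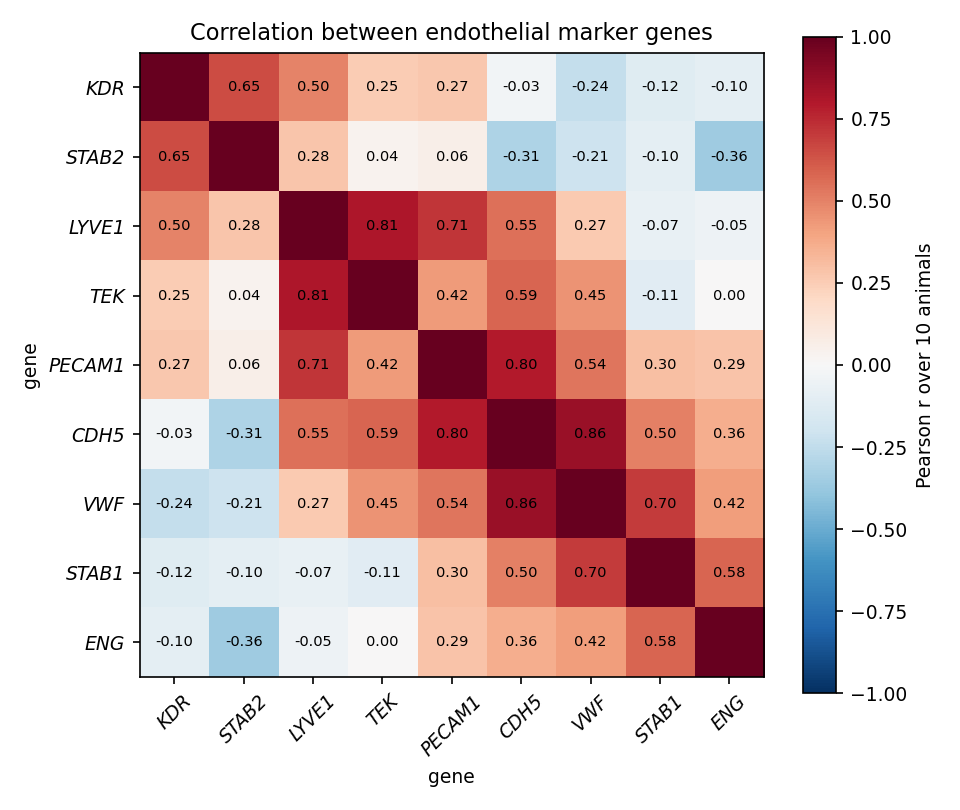
Pearson's r of log2(normalized count + 1) between each pair of the 9 measured members over the 10 animals, from -1 (blue) to 1 (red). Genes were placed by hand so that correlated genes sit side by side. LYVE1, TEK, PECAM1, CDH5 and VWF form the red block in the middle, with r from 0.27 (LYVE1 and VWF) to 0.86 (VWF and CDH5). STAB1, next to the block, has r = 0.70 with VWF and 0.50 with CDH5. KDR and STAB2 are below 0 against CDH5, VWF, STAB1 and ENG.

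Of the 9 relations between a member and the mitochondrial percent over the 10 animals, none had an adjusted p under 0.05. STAB1 came nearest, with r = 0.665 (permutation p = 0.0383, adjusted 0.344) and rho = 0.697 (permutation p = 0.0303, adjusted 0.272). Without the 2 animals farthest from the median share its r was 0.752. KDR had r = 0.266 (permutation p = 0.451, adjusted 0.676) and rho = 0.273 (permutation p = 0.449, adjusted 0.808), and its r was 0.172 without the 2 animals farthest from the median share.

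The transcripts whose log2 levels over the 10 animals were most like the member score were DPY19L3 (Pearson's r = 0.901), EXOC3L2 (0.901), TIE1 (0.898), INO80E (0.893) and ARHGEF17 (0.884), given as a description. Of all tested transcripts, 1.69% had an r above 0.7. TIE1, an endothelial receptor that pairs with the product of TEK, had 17.0 ± 2.56 normalized counts on the HFr diet and 13.8 ± 4.06 on chow (SD, n = 5 each), a difference smaller than the SD of the chow animals.

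Other genes of the same cells gave few differences. Of 16 further sinusoidal markers, 8 were tested, with 6 fold changes above 0 and 2 below, and 0 reached an unadjusted p under 0.05 in edgeR (median log2 fold change 0.17). Those with the most normalized counts, which also depend on transcript length, were FCN2, a soluble lectin of complement, at 204 ± 62.2 normalized counts on the HFr diet and 176 ± 68.7 on chow, CTSL, a lysosomal protease, at 219 ± 41.9 and 170 ± 48.9, and OIT3 at 52.4 ± 4.24 and 48.5 ± 20.9 (SD, n = 5 each). CLEC4M, FCGR2B and MAF were not analysed here. The summed level of the list lay between 510 and 737 in the HFr animals and between 365 and 668 in the chow animals. DESeq2 and limma also called 0 genes of this list, but its count depended on the filter, the model and the animals included. It was 2 with the looser filter of a count above 0 in any animal (FCN3, unadjusted p = 0.0180, and GPR182, unadjusted p = 0.0165, both higher on the HFr diet in edgeR) and 1 with the replicate number as a block (CLEC4G, higher, unadjusted p = 0.0300 from edgeR). It was also 1 without HFr replicate 3 (CLEC4G), without chow replicate 4 (CTSL) or without chow replicate 5 (MRC1, the mannose receptor gene). Such a p in either direction was found for 4.71% of all tested transcripts with the looser filter and 3.41% with the block. Without HFr replicate 3, chow replicate 4 and chow replicate 5 the share was 4.74%, 4.91% and 3.43%. An alternative chosen after seeing the data left out both chow replicates 4 and 5, the libraries with the fewest nuclear counts. These were also the chow animals with the highest sums of this list, 668 and 605. Leaving these animals out by itself lowers the chow mean of the list. The count was then 4, namely FCN2 (log2 fold change 0.65, unadjusted p = 0.0439 from edgeR), OIT3 (0.49, 0.0473), MRC1 (0.68, 0.0464) and CTSL (0.60, 0.0299), all higher on the HFr diet. Of all transcripts tested in those 8 animals, 4.44% had such a p in either direction. These genes, apart from the leading genes of the list, were named after their values were seen. In the same 8 animals the macrophage genes VSIG4 (log2 fold change 1.07, unadjusted p = 0.0144 from edgeR) and C1QB (0.89, 0.0413) were also higher on the HFr diet. The part of macrophages in the 4 sinusoidal list values was not tested. Of 22 further pan-endothelial genes, 15 were tested, 10 were higher, 5 were lower, and 0 reached an unadjusted p under 0.05 in edgeR (median 0.06). The count was 1 without HFr replicate 4 (BCL6B, higher) or without chow replicate 3 (ROBO4, lower), where 4.1% and 4.65% of all tested transcripts had such a p. The pan-endothelial genes with the most normalized counts besides TIE1 were ESAM, an adhesion molecule, at 32.6 ± 4.32 and 31.9 ± 8.44 normalized counts, and MMRN2, a matrix protein of vessels, at 20.7 ± 4.83 and 18.3 ± 5.69 (HFr and chow, SD, n = 5 each). MMRN1, a multimerin of platelets and lymphatic endothelium picked out after its values were seen, did not pass the filter on low counts, with 0, 2, 0, 0 and 0 estimated counts in HFr replicates 1 to 5 and 32, 5, 1, 2 and 5 in chow replicates 1 to 5. With the looser filter of a count above 0 in any animal, it was lower on the HFr diet with an unadjusted p of 0.000394 from edgeR. This raised the pan-endothelial count from 0 to 1, and likewise that of the VWF processing and partners list, which also holds it.

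The ligands and receptors around KDR, TEK and ENG were also examined. In the list of 12 further genes of vascular endothelial growth factor and angiopoietin signaling, 7 were tested and 0 reached an unadjusted p under 0.05 in edgeR (5 higher, 2 lower, median 0.09). VEGFB, a ligand, had 22.7 ± 2.21 normalized counts on the HFr diet and 20.9 ± 6.52 on chow, NRP1, a coreceptor of KDR, 44.5 ± 11.2 and 36.4 ± 9.99, and FLT1, the other main receptor of the ligand family, 9.20 ± 2.17 and 9.30 ± 2.10 (SD, n = 5 each). The angiopoietin gene ANGPT1 had at most 3 estimated counts per animal. In the list of 14 genes of endoglin and bone morphogenetic protein signaling, 8 were tested, 3 higher and 5 lower (median -0.07). Of these, 0 reached an unadjusted p under 0.05 in edgeR. ACVRL1, the endothelial receptor that works with endoglin, did so without chow replicates 4 and 5, the alternative chosen after seeing the data (log2 fold change 0.77, unadjusted p = 0.0261 from edgeR). The inhibitor of DNA binding genes ID1, ID2 and ID3, induced by this pathway, had 24.1 ± 5.99, 80.1 ± 27.3 and 18.7 ± 3.82 normalized counts on the HFr diet and 23.8 ± 7.73, 101 ± 50.2 and 22.2 ± 10.2 on chow (SD, n = 5 each).

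Of 14 genes for Notch signaling, shear-stress response and central vein signals, 9 were tested, 2 were higher and 7 lower (median -0.31), and 1, which was lower, reached an unadjusted p under 0.05 in edgeR, against 2.23% of all tested transcripts that were lower with such a p. This was KLF4, a transcription factor that laminar flow induces in endothelium and that other cells also express, at 5.99, 7.35, 6.81, 4.85 and 9.43 normalized counts in HFr replicates 1 to 5. In chow replicates 1 to 5 KLF4 had 17.9, 20.01, 9.29, 6.02 and 10.04, so chow replicates 1, 2 and 5 were above all HFr animals and chow replicates 3 and 4 were within the HFr range. Its log2 fold change was -0.90 (SE 0.31, unadjusted p = 0.0123 from edgeR), and none of the list passed adjustment. The related KLF2 had 18.3 ± 3.45 and 19.2 ± 6.71 normalized counts, NOTCH1 55.2 ± 15.9 and 45.2 ± 10.3, and HES1, a Notch target, 19.8 ± 5.55 and 25.3 ± 10.9 (HFr and chow, SD, n = 5 each). Of 7 genes in the list titled VWF processing and partners, 4 were tested and 0 reached an unadjusted p under 0.05 in edgeR. ADAMTS13, the protease that cleaves von Willebrand factor, had 101 ± 47.1 and 108 ± 44.4 normalized counts. MCFD2 and LMAN1, a cargo receptor pair of the secretory pathway, had 107 ± 33.7 and 94.3 ± 20.5 and 63.8 ± 12.3 and 66.3 ± 11.8 (HFr and chow, SD, n = 5 each). Not every gene of this list acts on the product of VWF itself.

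Markers of the other cells of the biopsies were measured beside the members. Of the hepatocyte, cholangiocyte, macrophage, lymphocyte and blood cell lists, 10 of 10, 3 of 8, 9 of 12, 6 of 10 and 1 of 8 genes were tested and 0 reached an unadjusted p under 0.05 in edgeR, but some did under alternatives. Of the tested genes, 8, 1, 8, 3 and 1 had a fold change above 0. The hepatocyte gene TF (higher on the HFr diet) had such a p with DESeq2 and with the study's equal-variance test. HBB (higher) had one with the mitochondrial percent as a covariate. The cholangiocyte gene KRT19 (lower) had one without mitochondrial transcripts, and KRT19 and the T cell gene TRAC (higher) with the filter of a count above 0 in any animal. Without chow replicates 4 and 5, the alternative chosen after seeing the data, VSIG4, C1QB and HBB (higher) and KRT19 (lower) had one. Over all tested transcripts the share in these settings ran from 4.13% to 5.11%. The summed macrophage markers, which bear on STAB1 and LYVE1, ranged from 391.9 to 560 normalized counts on the HFr diet and from 349 to 584 on chow. Most of this came from CD14, at 275 ± 28.0 and 275 ± 24.3 (HFr and chow, SD, n = 5 each). Other genes of the list varied more between animals. MARCO ran from 8.02 to 57.3 and from 9.79 to 47.7, C1QB from 15.2 to 58.0 and from 13.9 to 69.3, and CD5L from 7.80 to 53.3 and from 13.3 to 48.8. The summed erythroid and platelet markers ranged from 101 to 333 and from 60.9 to 347, nearly all from the red cell gene HBB. This sum therefore says little about platelets, which bear on VWF and PECAM1. The platelet gene GP9 was at 0 in all animals. The platelet gene PPBP had 1 to 15 estimated counts on the HFr diet and 1 to 17 on chow, and PF4 had 0 to 2 and 0 to 4. Both had a lower mean level on the HFr diet with overlapping ranges, while ITGA2B, with at most 2 counts, had a higher one. These platelet genes did not pass the filter on low counts. The summed hepatocyte markers ranged from 49985 to 77511 on the HFr diet, with chow replicate 1 at 39764 as the lowest and chow replicate 3 at 83348 as the highest on chow, which are the animals with the highest and the lowest member score. The summed cholangiocyte markers ranged from 58.7 to 87.7 on the HFr diet and from 37.7 to 92.7 on chow, and the summed lymphocyte markers, mostly from the immunoglobulin gene JCHAIN, from 68.0 to 558 and from 177 to 732. The part of these cells in the member values was not tested.

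Of 12 stellate cell, fibroblast and smooth muscle markers, 7 were tested, and 2 of them were lower on the HFr diet at an unadjusted p under 0.05 from edgeR, against 2.23% of all tested transcripts. The count was 1 with library size only, with the study's equal-variance test or with 10 counts asked for in every animal, 3 with the filter of a count above 0 in any animal (MYH11 added, also lower), and 0 without chow replicates 4 and 5. In this order of settings, 1.56%, 4.13%, 4.26%, 4.71% and 4.44% of all tested transcripts had such a p in either direction. ACTA2, the smooth muscle actin gene, had 6.74, 6.68, 5.61, 1.32 and 5.50 normalized counts in HFr replicates 1 to 5 and 10.2, 16.3, 3.83, 16.6 and 31.9 in chow replicates 1 to 5, with chow replicate 3 alone inside the HFr range. The ACTA2 log2 fold change was -1.57 (SE 0.49, unadjusted p = 0.00646 from edgeR). TAGLN, a contractile protein gene of smooth muscle, had 11.5 ± 2.86 normalized counts on the HFr diet and 18.8 ± 5.18 on chow (SD, n = 5 each), and its log2 fold change was -0.69 (SE 0.24, unadjusted p = 0.0122 from edgeR). Without chow replicates 4 and 5, the libraries with the fewest nuclear counts, the unadjusted p from edgeR was 0.0664 for ACTA2 and 0.0938 for TAGLN. The summed level of this list was 846 normalized counts in chow replicate 1 and 716 in chow replicate 5, against 190 to 317 in the other chow animals and 233 to 416 in the HFr animals. DCN alone gave 498 and 368 of these sums in chow replicates 1 and 5. These were also the animals with the highest VWF levels, 26.3 and 30.1. The smooth muscle gene ACTA2 had another order, with chow replicate 1 below chow replicates 2 and 4. The part of the cells of this list in the VWF and CDH5 values was not tested. LRAT, a stellate cell gene, was at 0 in all animals.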

How the data were processed

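The authors aligned paired-end reads with STAR to ChlSab1.1, and used the expectation-maximization step of Partek Flow to deposit estimated counts of 28078 transcripts. They also deposited normalized signal values scaled by TMM for 16105 transcripts, a constant multiple of the counts in each animal to within 0.00147%. Here estimated counts were rounded (96.0% of those of detected transcripts were whole), filtered with filterByExpr (minimum count 10, minimum total 15) and compared with edgeR's quasi-likelihood test, with TMM and diet as the only term. The threshold is the unadjusted 0.05 that the study used. Intervals are at 95%. Adjusted p-values cover all 7948 transcripts. Correlations used 100000 permutations. Coordinates are as deposited, with the listed stop excluded. Python 3.11.15, R 4.3.3, DESeq2 1.42.0, edgeR 4.0.16 and limma 3.58.1 were used.

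The members, gene lists and the relations with the mitochondrial percent were chosen with earlier results of these data known. Named are all members, of each list those tested genes that reached an unadjusted p under 0.05 or had no overlap and the 3 with the highest mean level, and the 5 transcripts most like the member score, while values of marker genes of other cells are given mostly as sums. Alternatives were DESeq2, other scalings, filters and tests, a block on the replicate number, the mitochondrial percent as a covariate and each animal left out. Tested on simulated data of this comparison with 7948 transcripts, edgeR found 88% of 100 transcripts with a simulated log2 change of 1 at an unadjusted p under 0.05, and 5.25% of 7748 unchanged ones. After adjustment it found 36% of those 100. Changes smaller than 1, as fitted for all members, were not simulated.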

Additional observations from a re-analysis of the deposited data

Results flagged for a closer look

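The levels of the 9 members, of the named genes, the sums of the 12 lists and the member score were screened in each diet for 1 animal far from the other 4 by the gap to its neighbor over the range of the group. Of 118 groups examined, 6 had such an animal, where chance gives about 1 in 20, and none was a member. MMRN2, the vessel matrix gene, had 29.3 normalized counts in HFr replicate 3, and its other HFr values ran from 17.7 to 19.6. The summed VWF processing and partners list had 336 in chow replicate 1, and the other chow sums ran from 259 to 274. ACTA2 was at 1.32 in HFr replicate 4, below 5.50 to 6.74 in the others. The other 3 were markers of other cells, with SERPINA1 at 7440 in HFr replicate 5 (others 4627 to 5113), SOX9 at 12.8 in chow replicate 3 (others 1.51 to 3.70) and GZMB at 23.2 in HFr replicate 3 (others 10.5 to 12.97).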

How the results depend on the processing

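KDR was higher on the HFr diet under all 23 alternatives, with log2 fold changes from 0.48 to 0.67, and its unadjusted p was under 0.05 in 22 of them. The exception was scaling by library size only, where 0 members had such a p. The share over all tested transcripts also fell there, to 1.56% from 4.29%. Leaving out each animal in turn, the number of members with an unadjusted p under 0.05 was 1 to 2. It was 2 without chow replicate 1, where STAB2 joined KDR and 4.53% of all tested transcripts had such a p. The difference in the member score ranged from -0.03 without chow replicate 3 to 0.15 without chow replicate 1. LYVE1, PECAM1 and STAB2 stayed higher and VWF and ENG lower under the alternatives run for them. ENG could not be fitted when 10 counts in every animal were asked for. CDH5 changed sign in 8 alternatives, to 0.049 with library size only, 0.0064 with voom and quality weights, 0.0087 with the mitochondrial percent as a covariate, 0.22 without chow replicates 4 and 5, and 0.02, 0.0041, 0.01 and 0.14 without HFr replicate 1, HFr replicate 4, chow replicate 1 and chow replicate 5 (from -0.14 to 0.14 over the animals left out). TEK changed sign in 4, to -0.04, -0.02, -0.051 and -0.0026 without HFr replicate 2, HFr replicate 3, chow replicate 2 and chow replicate 4. STAB1 changed sign in 1, to 0.030 without chow replicates 4 and 5, an alternative chosen after seeing the data. The cause of these changes was not tested. KLF4 and ACTA2 had unadjusted p-values of 0.0767 and 0.0629 with the study's equal-variance test, and TAGLN 0.0545 with library size only. Taking deviations from the diet means raised the number of correlated pairs from 1 to 3, in a permutation that did not allow for the fitted diet means. The labels do not say whether the same replicate numbers pair animals, and the levels showed no sign of it. Deviations from the diet means of same-numbered animals had correlations from -0.29 to 0.10 over all tested transcripts, and 1 of the 10 animals correlated best with its own number. A pairing by age or body weight need not show in these correlations, so they cannot exclude one. With the replicate block, 1 member, KDR, had an unadjusted p under 0.05 (log2 fold change 0.59) and 271 of all tested transcripts did, against 341 without it. Depth limits ENG most, with as few as 8 estimated counts in an animal.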
